A study of Mus musculus with 2 samples.

Results

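Gsdmd encodes gasdermin D, and the array carries it as 1 gene of 50 gene probes printed beside 14400 small-RNA probes. It was taken as the probe A_51_P172231, whose transcript identifier in the scanner files is NM_026960 and whose symbol is Gsdmd in RefSeq. The probe was printed 10 times on each array. The data come from BV-2 cells, an immortalised mouse microglial line, on 2 two-colour Agilent arrays. The OGD/R array holds RNA of cells placed in glucose- and serum-free medium for 2 h at 37 °C without oxygen, under 5% CO2 and 95% N2, and then given back oxygen and regular medium. The sources used here do not state how long that return lasted. The control array holds RNA of BV-2 cells without the deprivation. Both arrays had an RNA fraction bound by an antibody against a modification (IP, Cy5) and the unbound remainder (Sup, Cy3). The sources used here do not name the modification. The dyes were not exchanged, so fraction and dye cannot be told apart on a single array.

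Gasdermin D is the executioner of pyroptosis, an inflammatory form of cell death. Inflammatory caspases, activated by inflammasomes or by bacterial lipopolysaccharide in the cytosol, cut it in the linker between its domains, and the freed N-terminal domain assembles into pores in the plasma membrane. These pores release interleukin-1 family cytokines and can lead to rupture of the cell, and microglia are among the brain cells in which the pathway is studied after ischemia. The arrays read RNA and carry no information on cleavage or pores.

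In the OGD/R array the Gsdmd signal of the unbound fraction was 2.44-fold lower than in the control array after scaling, while the signal of the bound fraction differed by 1.12-fold. The median-centred IP/Sup ratio of Gsdmd was 2.63-fold higher in OGD/R, or 1.40 ± 0.06 on the log2 scale. For a difference, the spot SD given here combines the SDs over repeat spots of the 2 arrays in quadrature. The ratio difference fell short of 2-fold with normexp and loess (0.90), centred on the gene probes (0.57) and with the median difference of the gene probes taken off (0.75). An upward difference of 2-fold or more in the ratio was reached by 4.27% of all RNAs above background in at least 1 channel. It was reached by 26.5% of the 34 gene probes with signal over background in both channels of each array. With that stricter filter 66 of 4909 RNAs reached it. The IP share of the Gsdmd signal was 84.2% ± 0.44 in OGD/R and 67.3% ± 0.53 in control (SD over 9 and 10 spots). There was 1 array per group, so these differences have no replicate check, and no test between the conditions was made. Repeat spots share 1 labelled RNA, and their SD holds the scatter within an array only. In RNA from a whole culture, a change in the number of cells with the transcript and a change per cell cannot be told apart.

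The unbound fraction carried the difference in every spot. Processed Sup signals, which the scanner software gives after background subtraction and dye normalization, were 8598 at the lowest, 9109 at the median and 9319 at the highest of the OGD/R spots. In the control spots they were 22339 at the lowest, 23060 at the median and 24039 at the highest. The spots of the arrays did not overlap, and 13020 units lay between the highest OGD/R spot and the lowest control spot. Such a gap in Sup, in either direction, was found for 76.5% of the 34 gene probes. The mean was 9055 ± 245 in OGD/R and 23139 ± 527 in control (SD over spots). On the log2 scale the scaled difference was -1.29, with a spot SD of 0.05. The difference was -1.35 without scaling, and -0.85 and short of 2-fold when the arrays were scaled by the median of the spike-in probes.

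The bound fraction was at nearly the same brightness on both arrays. Processed IP signals ran from 45435 over a median of 48627 to 49187 in OGD/R and from 45958 over a median of 47709 to 48434 in control. These ranges overlap over most of their length, whereas 76.5% of the gene probes had IP spots that did not overlap. The means were 48268 ± 1224 in OGD/R and 47527 ± 867 in control. The unscaled log2 difference was 0.02, with a spot SD of 0.05, and the scaled one was 0.16. The scaled value thus owes most of its size to the IP scaling of the arrays, and with scaling over all non-control probes it was 0.08.

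**Figure D1:**
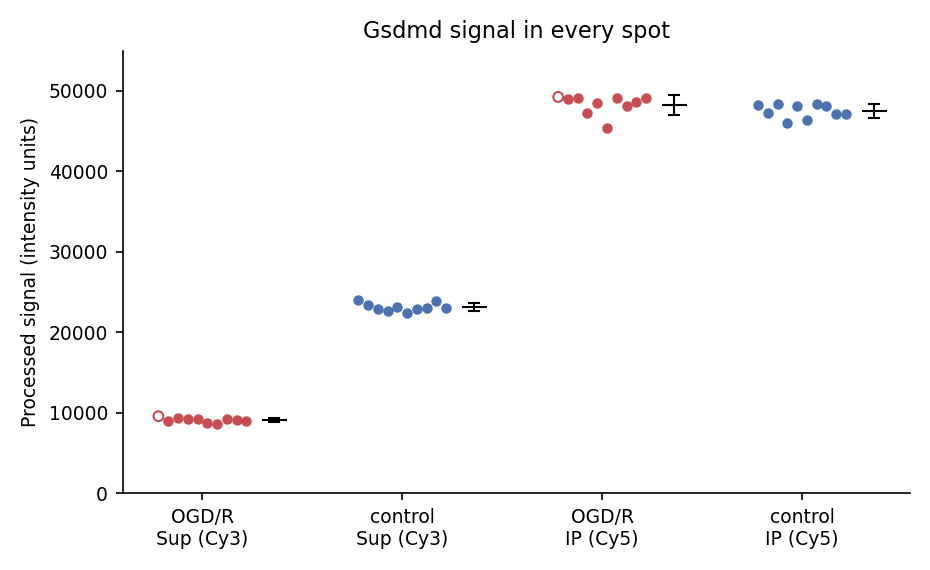
Processed Gsdmd signal (intensity units, linear axis from 0) of every spot in the Sup and IP channels of the OGD/R and control arrays. Bars give the mean ± SD over retained spots, and the open circle is the OGD/R spot that the scanner software marked as an outlier. The Sup spots lie near 9055 in OGD/R and near 23139 in control, while the IP spots of the arrays overlap.

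The signals were far above background, so the lower Sup signal in OGD/R is not a reading at the detection floor. On each array all 10 spots passed the scanner's test for clear signal over background, in Sup as in IP, and 0 were saturated. The median pixel signal of the Sup spots was 39.6 times their local background in OGD/R and 84.1 times in control. For the IP spots it was 86.7 times in OGD/R and 93.1 times in control. The local background itself was alike, at 11.6 units in OGD/R and 12.1 in control for Sup, and at 14.7 in OGD/R and 13.6 in control for IP. Negative control spots had median processed Sup signals of 27.5 in OGD/R and 28.8 in control, and median IP signals of 31.0 in OGD/R and 31.7 in control.

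The scanner software marked 1 Gsdmd spot on the OGD/R array as an outlier in Sup, where it read 9564. That is the highest Sup reading of the OGD/R array and still far below the lowest control spot. The spot was left out, and with it the ratio difference would be 1.39.

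The IP share described the same difference per spot. In OGD/R it ran from 83.7% over a median of 84.1% to 85.1%, and in control from 66.3% over a median of 67.3% to 67.9%. The gap between the lowest OGD/R spot and the highest control spot was 15.8 percentage points. A clean gap was usual: in the centred ratio the spots of the arrays did not overlap in 82.4% of the 34 gene probes. As a plain ratio of processed signals, IP was 5.33 ± 0.18 times Sup in OGD/R and 2.05 ± 0.05 times Sup in control (SD over spots). The share rests on separately labelled and dye-normalized channels and is not a fraction of molecules.

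The printing positions are the same on both arrays, which allowed 9 retained positions to be set against each other. The centred log2 ratio was higher in OGD/R at 9 of 9 positions, by 1.34 at the least, 1.37 at the median and 1.46 at the most. The processed Sup signal, unscaled, was lower in OGD/R at 9 of 9 positions. The unscaled IP signal was higher at 8, but with a median difference over the 9 positions of only 0.02 log2, within the spot SD of 0.05. Spots of the arrays did not overlap in 82.4% of the 34 gene probes for the ratio and in 76.5% for Sup. In such probes all positions go the same way, so full agreement over positions was the usual case. Positions were not counted for other gene probes. The Gsdmd spots lie scattered over the 192 rows of the array. In its upper part, with 3 retained OGD/R spots and 4 control spots, the mean ratio difference was 1.40, and it was also 1.40 in its lower part with 6 spots of each array. The bound fraction shared some variation between positions, with Pearson r = 0.65 between the arrays over the 9 positions. For the ratio this was 0.14. These correlations describe print positions on arrays read at 1 scan time and are no measure of the cells.

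The scanner's own error model is wider than the scatter over spots. Its error of the log2 ratio of a single spot averaged 0.30 in OGD/R and 0.23 in control, or 0.38 for a difference between single spots. The Gsdmd ratio difference was 3.71 times that error. Neither figure holds differences between cultures, pull-downs or labelling reactions.

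The ratio difference of Gsdmd was present before dye normalization and larger after it. Before that step, with background-subtracted signals, Sup averaged 431 ± 12 units in OGD/R and 995 ± 32 in control, and IP averaged 1240 ± 51 in OGD/R and 1237 ± 49 in control. The uncentred log2 ratio at that stage was 1.53 ± 0.05 in OGD/R and 0.31 ± 0.04 in control, and after centring the difference was 1.16. The IP share was 74.2% ± 0.71 in OGD/R and 55.4% ± 0.63 in control. The share difference went the other way from the ratio difference, at 18.8 percentage points before dye normalization and 16.9 after it. The change from background-subtracted to processed signals may also hold detrending, and dye normalization was not tested alone. This change multiplied the Sup signal of Gsdmd by 21.0 in OGD/R and 23.3 in control. It multiplied the IP signal by 38.9 in OGD/R and 38.4 in control. The Sup factor was smaller in OGD/R than in control. These factors were taken for Gsdmd only, so the values do not show whether other probes differ in the same way.

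**Figure D2:**
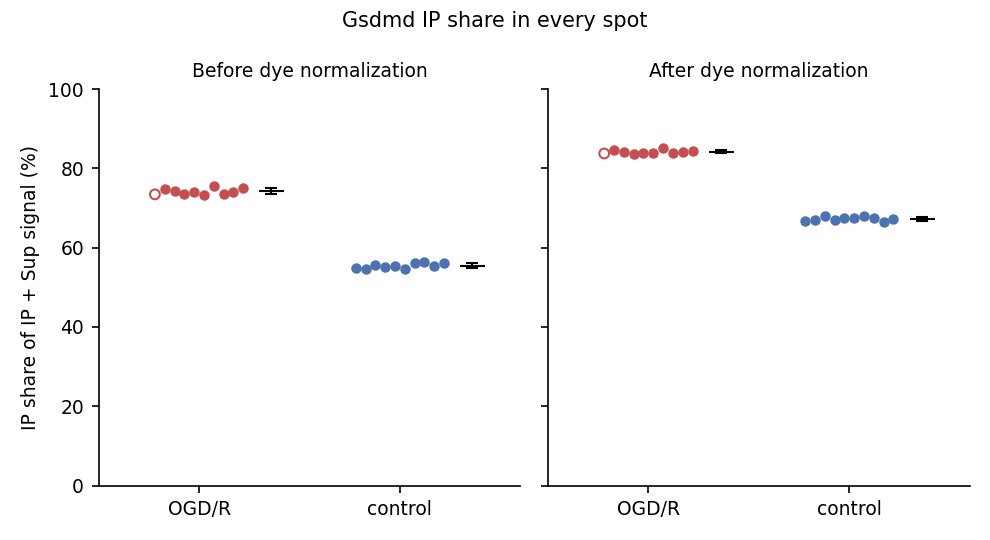
IP share of the summed IP and Sup signal (percent, axis from 0 to 100) of every Gsdmd spot in OGD/R and control, from background-subtracted signals before dye normalization (left) and from processed signals after it (right). Bars give the mean ± SD over retained spots, and the open circle is the spot marked as an outlier. The share was higher after dye normalization on both arrays, and the OGD/R spots lay above the control spots at both stages.

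The summed signal of both channels, a stand-in for abundance, differed less than the ratio. It was 57322 ± 1297 units in OGD/R and 70666 ± 1153 in control, and its scaled log2 difference was -0.22 with a spot SD of 0.04. Unscaled it was -0.30. Among the 34 gene probes, in OGD/R 3 (8.82%) had a sum past 2-fold upward and 2 (5.88%) past 2-fold downward, and Gsdmd was in neither set. Background-subtracted sums were 1671 ± 58 in OGD/R and 2232 ± 77 in control, and their scaled difference was -0.37. The unscaled sum was lower in OGD/R at 9 of 9 positions, where Sup was lower at 9 and IP nearly unchanged, with a median difference of 0.02 log2. The sum depends on how each channel was labelled, so it gives no measured transcript level.

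Gsdmd stood near the top of the gene probes, most of which had higher ratios in OGD/R. Of the 34 gene probes 29 had a higher ratio in OGD/R, with a median difference of 0.65. A difference of 2-fold or more upward was seen for 9 of them (26.5%), Gsdmd included, and Gsdmd ranked 3rd from the top. The probe ranked just above it had 1.42 and the one just below 1.36, both apart from Gsdmd by less than its spot SD of 0.06. Of 4875 small-RNA probes with signal in both channels 57 (1.17%) passed the same threshold, and 6 had a difference at least as large as that of Gsdmd. Over all 7470 RNAs above background in at least 1 channel it was 319 (4.27%). Of 36 spike-in probes with signal in both channels 1 (2.78%) passed, with 2.10, which is above the Gsdmd value. With the median difference of the gene probes taken off, Gsdmd was 0.75 higher in OGD/R on the log2 scale, and with each array centred on the median of its gene probes 0.57 higher, both short of 2-fold.

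**Figure D3:**
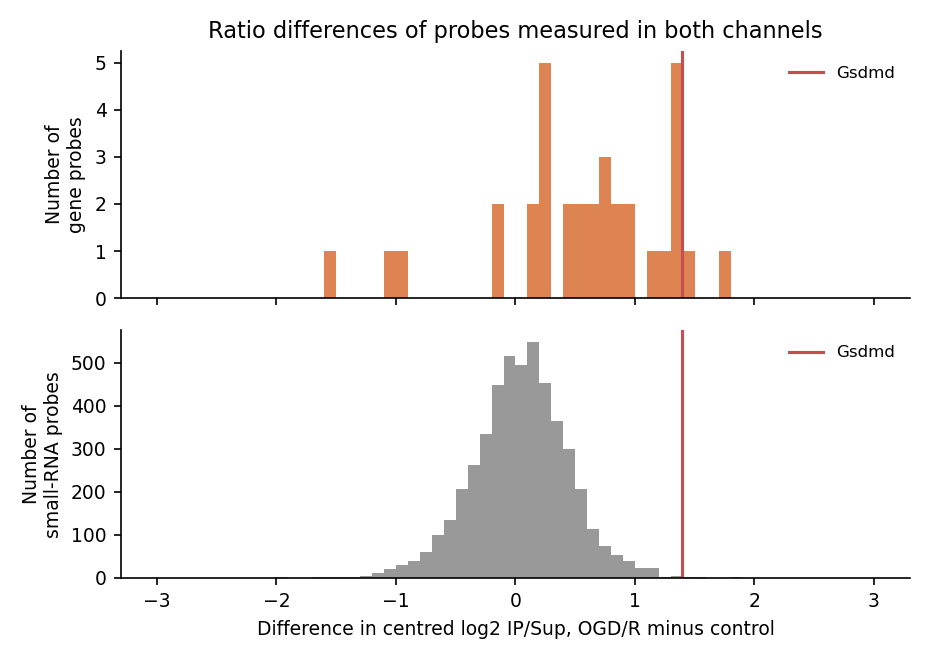
Number of gene probes (top) and small-RNA probes (bottom) measured in both channels, by their difference in centred log2 IP/Sup, OGD/R minus control, in bins of 0.1. The vertical line is Gsdmd at 1.40, in the upper tail of the small-RNA probes and near the upper end of the gene probes, whose median is 0.65.

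A lower Sup signal was common among gene probes. It was at least 2-fold lower in OGD/R in 13 of the 34 (38.2%), where Gsdmd ranked 5th from the lowest and the median difference was -0.54. Among the small-RNA probes the share was 1.81%, and among the spike-in probes 8.33%. In IP, 4 of the 34 gene probes (11.8%) were at least 2-fold higher and 2 (5.88%) at least 2-fold lower, and Gsdmd was in neither set. In 82.4% of these gene probes no repeat spot of one array reached the range of the other in the ratio, so the clean separation of the Gsdmd spots was the usual case. Sup was at least 2-fold lower and IP within 2-fold in 12 of the 34, Gsdmd included.

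The genes most like Gsdmd were taken as the 4 probes with symbols nearest to it in the pair of scaled Sup and IP differences, over the 2 arrays. Tm9sf1, which encodes a transmembrane 9 superfamily protein, was nearest, at a distance of 0.08 log2 units. Its Sup difference was -1.21 and its IP difference 0.16. These lay apart from the Gsdmd values by less than the spot SD of Tm9sf1, which was 0.10 in Sup and 0.09 in IP. In Sup they lay apart by more than the Gsdmd spot SD of 0.05. Gpi1, a glycolytic enzyme gene, followed at 0.19, with -1.12 in Sup and 0.26 in IP. The predicted gene Gm9789 lay at 0.26, with -1.08 in Sup and 0.33 in IP. The olfactory receptor gene Olfr166 lay at 0.40, with -1.25 in Sup and -0.23 in IP, and a second one, Olfr1307, was as near to 2 digits. The IP shares of Tm9sf1 were 90.2% in OGD/R and 79.0% in control, and those of Gpi1 were 75.2% in OGD/R and 55.2% in control.

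**Figure D4:**
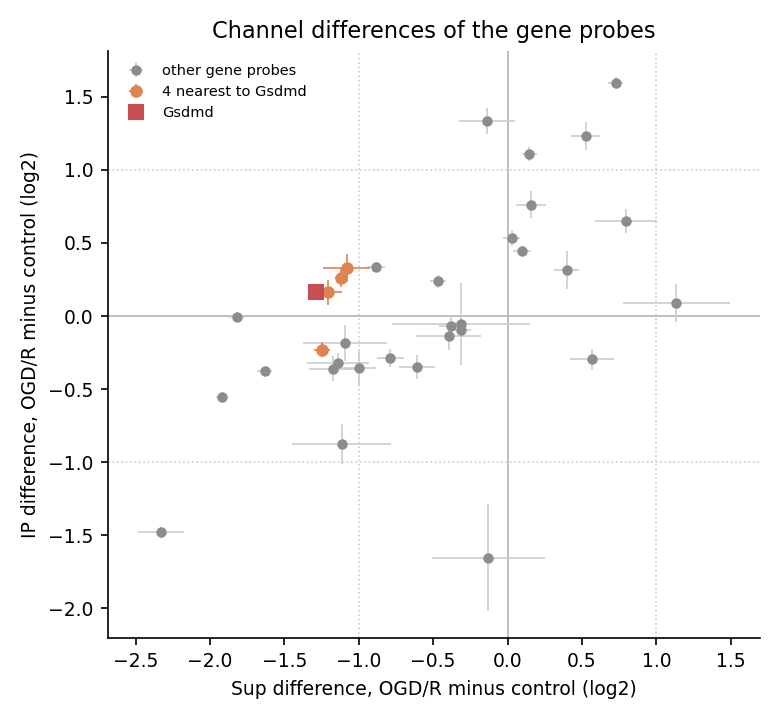
Scaled log2 difference, OGD/R minus control, in Sup (horizontal axis) and IP (vertical axis) of those 34 gene probes. Error bars are spot SDs, with the SDs of the 2 arrays combined, and dotted lines mark 2-fold. Gsdmd (square) lies at -1.29 in Sup and 0.16 in IP, beside the 4 probes nearest to it.

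No partner of Gsdmd in pyroptosis could be set beside it. A list of 47 genes held the other gasdermins, inflammasome sensors, the adaptor Pycard, caspases, interleukins of the pathway and the membrane rupture protein gene Ninj1, and 0 of them had a gene probe with a symbol here. The cell type could be checked only weakly. Of 16 microglial markers 1 had a probe, the apolipoprotein gene Apoe, which was well above background in Sup and IP of each array. Of 22 markers of neurons, astrocytes, oligodendrocytes, fibroblasts and endothelium 1 had a probe, the myelin gene Mbp, which was above background in IP and not in Sup on both arrays.

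The size of the Gsdmd difference changed with the signal processing, while its ratio difference ranked between 1st and 4th of the 34 gene probes under the 4 alternative signal processings tried. With normexp, a correction fitted to the undetrended pixel medians that adds 50 units to each signal and leaves out dye normalization, the ratio difference was 1.08 and the Sup difference -1.08. Gsdmd was then 1 of 2 gene probes (5.88%) and 1 of 10 RNAs in all (0.134%) with an at least 2-fold higher ratio, and ranked 2nd of the 34. The added units shrink the log2 ratio of a dim probe more than that of a bright one. The median pixel signal of the Gsdmd spots in Sup averaged 457 units in OGD/R and 1016 in control. The effect of the added units on the values and ranks was not tested. The median ratio difference of the gene probes was 0.22 with normexp and 0.65 as reported. With normexp and loess the ratio difference was 0.90 and the Sup difference -0.9997, both short of 2-fold. In that setting 0.0937% of all RNAs and 0% of the gene probes passed 2-fold upward, and Gsdmd had the highest ratio difference of the 34. With background-subtracted signals it ranked 4th. The IP difference lay between -0.07 and 0.20 over the 13 alternatives tried for it.

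**Figure D5:**
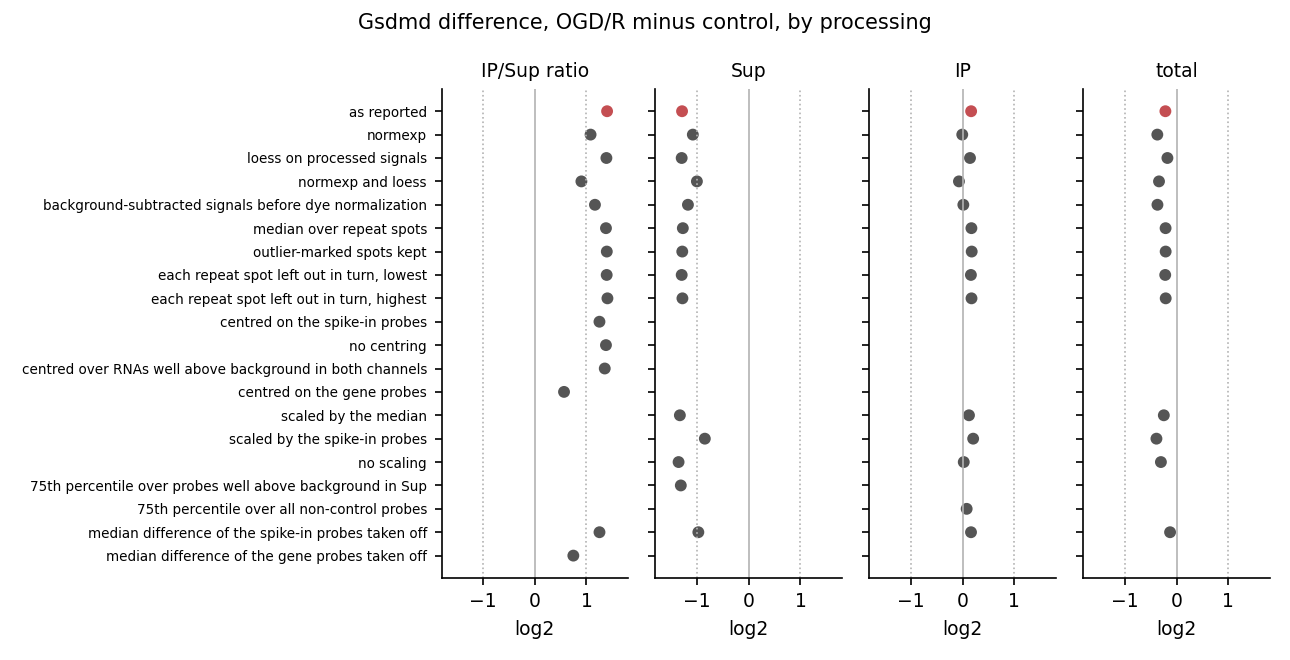
Log2 difference of Gsdmd, OGD/R minus control, in the IP/Sup ratio, Sup, IP and the summed signal, as reported (top row) and under each alternative processing. Dotted lines mark 2-fold. The ratio difference stays above 0 and the Sup difference below 0 in every row, while the IP difference lies near 0.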

How the data were processed

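The scanner files used here hold the fluorescence intensity of each spot, processed by Agilent Feature Extraction 11.0.1.1 with background subtraction, detrending and a dye normalization inside each array, per the file headers. The deposited log10 ratio of each Gsdmd spot equals that of its processed signals within 1.3e-07, and its error is a score from the scanner's error model, per the file headers. The authors' table of normalized values holds 0 rows for Gsdmd and was not used.

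Control spots and spots marked as outliers were left out, and log2 values of repeat spots were averaged. A probe counted as measured in Sup or IP where 50% or more of its spots were well above background. Ratios were centred on the array median over RNAs above background in at least 1 channel. Sup was scaled by the 75th percentile over all RNA probes, IP over detected probes and the sum over RNAs that passed the filter. Differences are OGD/R minus control, with a threshold of 2-fold and no test. The number of arrays limits the precision. RefSeq gave symbols to 46 of 50 gene probes by accession, and builds were not matched, so no coordinates are given. The named genes are Gsdmd, its 4 nearest gene probes and members of the fixed lists. Olfr1307 was added after its value was seen. The gene and lists were chosen with earlier results of these data known. Limma 3.58.1 gave normexp and loess. The computation of the centred ratio was tested on simulated data, and that of the Sup, IP, total and share differences was not. Alternatives covered background correction, loess, dye normalization, centring, scaling, filters and repeat spots.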

Additional observations from a re-analysis of the deposited data

How the results depend on the processing

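No paired analysis was possible because each group has 1 array. The Gsdmd ratio difference kept its sign under all 14 alternatives and stayed past 2-fold in 11, and the Sup difference kept its sign under 13 and stayed past 2-fold in 10. Both sets of alternatives include settings that change only which repeat spots are used or how they are averaged, and these moved the values little. Leaving out each repeat spot in turn gave ratio differences of 1.39 to 1.40. The ratio, Sup, IP and total differences were, in that order, 1.08, -1.08, -0.0069 and -0.37 (normexp), 0.90, -0.9997, -0.071 and -0.34 (normexp and loess), and 1.16, -1.17, 0.014 and -0.37 (before dye normalization). The IP share difference, 16.9 percentage points as reported, was 15.9 with loess, 12.5 with normexp and loess and 18.8 before dye normalization. The ratio difference was 1.25 centred on the median of the spike-in probes and 0.57 centred on that of the gene probes. In settings chosen after the data were seen, which take off the median difference of these probes instead, it was 1.25 and 0.75. The Sup difference was -0.85 scaled by the median of the spike-in probes and -0.97 with their median difference taken off, and the total difference was -0.39 and -0.13. Without scaling, Sup, IP and total differed by -1.35, 0.022 and -0.30, and IP by 0.078 scaled over all non-control probes.

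The 9 gene probes with a higher and the 2 with a lower ratio became 2 and 0 (normexp), 0 and 0 (normexp and loess) and 1 and 0 (3-fold). The 319 RNAs with a higher and 446 with a lower ratio became 10 and 5 (normexp), 7 and 10 (normexp and loess), 79 and 133 (3-fold), 66 and 45 (both channels above background) and 1116 and 1252 (no filter). The settings with normexp add 50 units to each signal and also leave out detrending and dye normalization, and the added units and the detrending were not varied alone. The causes of the shifts were not tested.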
